A study of Mus musculus with 15 samples.

Results

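The comparison is between 2 striated muscles of dystrophic mice that had been given the same senolytic drugs: the tibialis anterior (TA), a fast muscle of the lower leg, and the heart. Its members are 7 of the 15 libraries of the series, chosen by their labelled tissue and treatment: 4 TA libraries and 3 heart libraries, each labelled as a separate sample. All mice were DBA/2J-mdx, a strain without functional dystrophin, and there was no library from a wild-type mouse. All 7 received dasatinib, a kinase inhibitor, together with quercetin, a plant flavonoid (D+Q), by gavage 2 times per week. Treatment of the TA mice ran for 2 months, from 3 to 5 months of age. Treatment of the heart mice ran for 4 months, from 12 to 16 months of age. The other 8 libraries, 4 from TA and 4 from heart, came from vehicle-treated mice of the same strain on the same 2 schedules. They are used below for a contrast of TA with heart without the drugs. Age, length of treatment and tissue therefore cannot be told apart in any of these values. The D+Q TA mice were all labelled male, and each of the other groups held mice labelled male and mice labelled female.

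Skeletal and cardiac muscle are built on the same plan. Thick filaments of myosin pull on thin filaments of actin, troponin and tropomyosin when calcium leaves the sarcoplasmic reticulum, and calcium pumps then end the contraction. For most parts of this machinery the genome holds separate genes for fast skeletal fibres, slow skeletal fibres and heart. The 2 tissues are made from different lineages: limb muscle forms from somites under the MyoD family of transcription factors, while the heart forms under factors such as Nkx2-5, Gata4 and Tbx5. They also differ in fuel, since fast fibres rely on glycogen and glycolysis in short bursts and heart muscle on oxidation of fatty acids without rest. In muscle without dystrophin, limb fibres go through rounds of damage and regeneration, whereas cardiomyocytes are not replaced.

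The measured value was TPM, the reads per length of transcript scaled to the same total of 1000000 in every library. TPM is a share of the library's RNA and keeps no read depth. How many reads stand behind a value is therefore not known, and only the spread between mice can be given as its error. Between 21830 and 24146 genes were above 0 in the TA libraries and between 22579 and 22818 in the hearts. A gene was tested when 3 or more of the 7 libraries had 0.5 TPM or more of it, with limma on log2(TPM + 0.5), and every log2 fold change given here is TA minus heart on that scale, which understates differences of genes with low TPM. A gene was called when its adjusted p-value (Benjamini-Hochberg) was under 0.05 and its absolute log2 fold change was above 0.5.

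Before the results, 2 of the heart libraries need a remark. The library labelled D+Q heart replicate 3 was labelled male but held 47.2 TPM of Xist, the RNA that silences one X chromosome in females, and at most 0.0279 TPM of Ddx3y, Eif2s3y, Kdm5d and Uty, which lie on the Y chromosome. D+Q heart replicates 1 and 2, labelled female, held 59.5 and 53.2 TPM of Xist. The 4 TA libraries, labelled male, held at most 0.079 TPM of Xist and at least 28.7 TPM of Ddx3y. By these genes all 3 hearts were female and all 4 TA muscles male, so sex cannot be told apart from tissue either. Without replicate 3, on the same genes, 2874 were higher in TA and 2345 higher in heart, beside the counts given next for all 7 libraries. D+Q heart replicate 2 held small amounts of fast skeletal transcripts. For 9 abundant genes of fast fibres its level was 0.115 to 0.261% of the TA mean, against 0 to 0.0503% in the other D+Q hearts. The level was 0 to 0.0643% in the 4 vehicle hearts. That range was limited in advance, since the 9 genes were also chosen for low values in the vehicle hearts. All skeletal sarcomere genes listed below summed to 513 TPM in D+Q heart replicate 2 and to 479 and 421 TPM in replicates 1 and 3. In the vehicle hearts they summed to 396 to 766 TPM. Where leaving out replicate 2 moves the difference of a named gene by over 1.5 times, the value without it is given in the same paragraph.

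The tissues separated clearly. Correlations of log2(TPM + 0.5) were 0.947 to 0.97 among the TA libraries, 0.976 to 0.978 among the hearts and 0.809 to 0.834 between them. Of 16381 genes tested, 3472 were higher in TA (21.2%) and 2556 were higher in heart (15.6%), together 36.8%, and for 48.4% of the genes the ranges of the 2 groups did not overlap. The balance between the directions depended on the scaling: with median-of-ratios scaling 2949 were higher in TA and 3052 in heart, and with the mitochondrial genome left out 3047 and 3045. The shares with all genes in TPM are the background against which the counts below are read. A gene made in 1 tissue only passes the filter through that tissue, so its difference follows in part from having been tested, and the counts and medians of the gene lists are given as descriptions of the genes tested. The 36 lists hold 637 entries, of which 610 were tested. Only 79 genes were called with a log2 fold change above 5 and 64 with one below -5. The median over all genes tested was 0.10.

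Many of the widest gaps were those of contractile proteins. Of 22 sarcomere genes of skeletal fibres, 21 were higher in TA and 1 was not called, with a median log2 fold change of 8.43. Of 17 sarcomere genes of heart muscle, 14 were higher in heart, 1 was higher in TA and 2 were not called, with a median of -7.58. The skeletal list made up 5.48 to 6.37% of all TPM in the TA libraries and 0.0421 to 0.0513% in the hearts, and the cardiac list made up 3.80 to 4.03% in the hearts and 0.133 to 0.252% in TA.

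Myosin heavy chains, the motors of the thick filament, divided the tissues almost completely. Myh4, the heavy chain of the fastest (IIB) fibres, was at 4190, 5529, 5855 and 5829 TPM in the 4 TA mice and at 0.0102, 10.2 and 0.33 TPM in the 3 hearts. Myh1, the chain of IIX fibres, was at 2410 to 3219 TPM in TA and at most 7.03 TPM in heart, and Myh2, of IIA fibres, at 156 to 321 TPM against at most 1.90 TPM. The highest heart value of each of the 3 chains was that of replicate 2, which is the library with the skeletal trace. The log2 fold change of Myh4 was 11.64 (SE 0.90, adjusted p = 2.03e-05) and was 12.99 without that replicate. For Myh1 and Myh2 it was 11.05 and 8.06 with all libraries and 12.29 and 8.78 without it. Myh6, the fast alpha chain of the heart, was at 5522, 5741 and 5002 TPM in heart and at 0.817, 0.631, 0.123 and 0.67 TPM in TA, a log2 fold change of -12.37 (SE 0.24, adjusted p = 1.25e-08), the most negative of all genes. Myh7, the slow beta chain that heart shares with slow skeletal fibres, was at 1849, 1520 and 1507 TPM in heart. In TA it was at 5.02, 2.75, 0.225 and 1.08 TPM (log2 fold change -9.57), so the TA mice differed from one another many-fold in Myh7 while every one of them lay far under the hearts.

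The regulatory proteins of the filaments followed the myosins. Tnni2, the fast troponin I that holds the thin filament off at rest, was at 3970, 4698, 4924 and 4467 TPM in TA and at 0.654, 9.28 and 0.805 TPM in heart. Tnni3, cardiac troponin I, was at 4967, 4910 and 4669 TPM in heart and at 0.126, 1.14, 0.249 and 1.02 TPM in TA. The ranges of the groups lay far apart for both genes, with log2 fold changes of 10.84 for Tnni2 (SE 0.66, adjusted p = 4.91e-06) and -12.19 for Tnni3 (SE 0.33, adjusted p = 5.80e-08). The other fast troponins, Tnnt3 and Tnnc2, had log2 fold changes of 10.87 and 11.20. Without heart replicate 2 these were 12.02 and 12.47, that of Tnni2 was 11.84 and that of Mylpf, the regulatory light chain of fast fibres, was 12.61 against 11.46. Their cardiac partners Tnnt2 and Tnnc1 had -8.30 and -7.58. Mylpf was at 6844 to 8740 TPM in TA, and Myl2, its counterpart in the ventricle, at 8684 to 9087 TPM in heart. Mybpc3, the cardiac myosin-binding protein, had the smallest adjusted p-value of all genes (log2 fold change -10.31, SE 0.10, adjusted p = 1.10e-09), with 621 to 698 TPM in heart and at most 0.045 TPM in TA.

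Some sarcomere genes did not keep to the tissue in their name. Acta1, skeletal alpha-actin, was at 12490 to 14840 TPM in TA and was still at 340, 304 and 292 TPM in the hearts (log2 fold change 5.42, SE 0.09, adjusted p = 8.47e-09). Actn2, the alpha-actinin of the Z disc in heart and in all skeletal fibres, was at 426 to 683 TPM in TA and 700 to 792 TPM in heart and was not called. Tnnt1, slow troponin T, was at 11.5 to 17.8 TPM in TA and 7.73 to 12.5 TPM in heart and was not called either. Mylk4, a myosin light chain kinase from the cardiac list, was higher in TA, at 333 to 524 TPM against 91.7 to 121 TPM. Several of these genes have near-identical relatives (Acta1 and Actc1, Myh6 and Myh7, Myh1, Myh2 and Myh4), between which reads can be split, so small values of one beside large values of its relative are uncertain.

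Genes for the same part were set side by side as 22 pairs, a skeletal gene and a partner counted as cardiac. The partners Pgam1 and Eno1 are widely expressed forms rather than cardiac ones. The skeletal partner was called higher in TA in 22 pairs and the cardiac partner higher in heart in 18. Pgam1 is among the 18, and its call (-0.68, adjusted p = 0.0308) was lost in 7 of 19 alternative settings. The skeletal partner was the more abundant one in every TA mouse in 20 pairs, and the cardiac partner in every heart in 20 pairs. The exceptions were few. Lmod2, the cardiac leiomodin, which acts at the ends of thin filaments, exceeded Lmod3 in all 4 TA mice, at 79.6 to 474 TPM against 52.8 to 80.7 TPM. It was not called between the tissues with all mice (-0.93, adjusted p = 0.187) and was called higher in heart without TA replicate 1 (-1.41, adjusted p = 0.00738). Jph1 and Jph2, which tether the reticulum to the surface membrane, lay close together in TA, at 111 to 154 and 112 to 140 TPM. In heart the glycolytic enzymes Pgam2 and Eno3, the muscle forms, exceeded Pgam1 and Eno1 in all 3 libraries, at 396 to 408 and 288 to 308 TPM against 30.3 to 39.6 and 71.0 to 73.8 TPM.

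**Figure D1:**
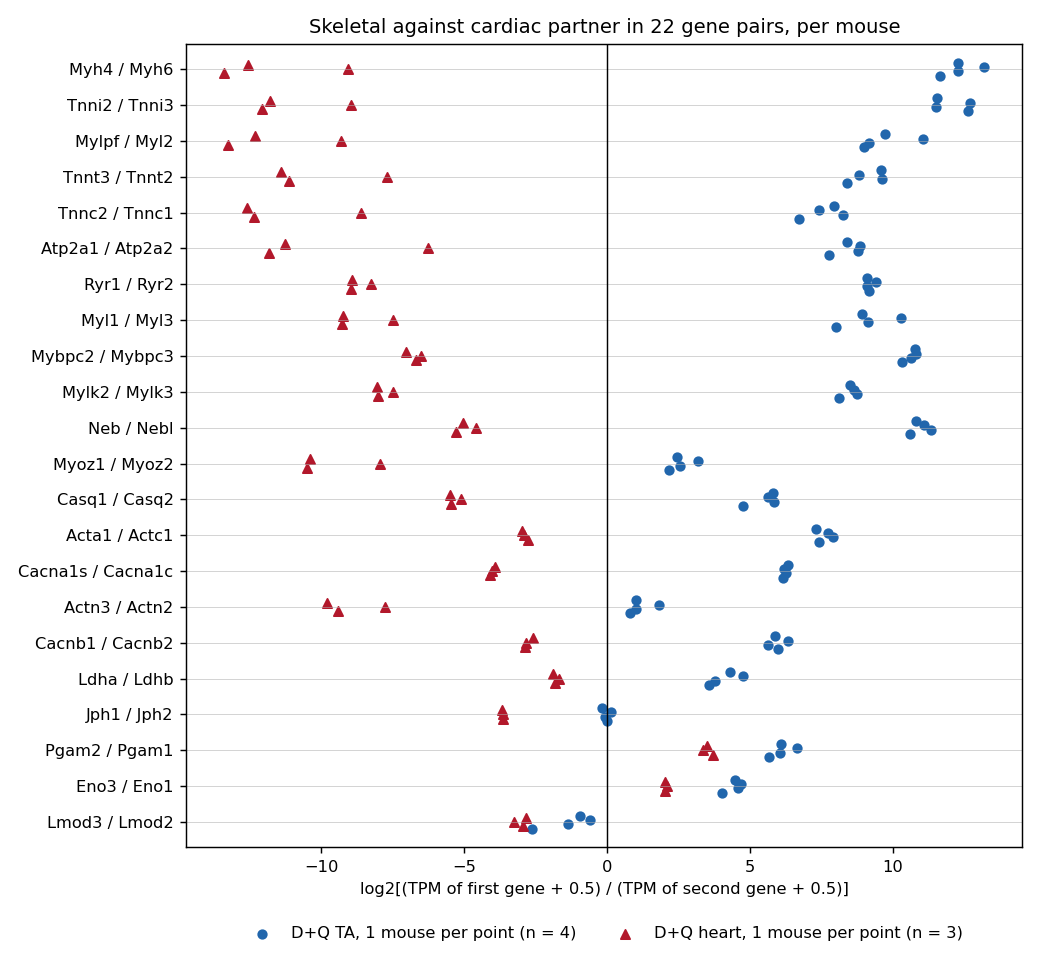
Each row is a pair of genes for the same part, skeletal gene first; the horizontal axis is the log2 ratio of their TPM (0.5 added to each), with 1 point per mouse, circles for the 4 D+Q TA libraries and triangles for the 3 D+Q hearts. Points right of 0 mean more of the skeletal gene: the TA points lie right of 0 in 20 of 22 pairs and the heart points left of 0 in 20, and the heart point that sits to the right of its group in the upper rows is replicate 2.

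The 200 bases before the start sites of the contractile genes are shown for 4 of them, so that the motifs counted below can be seen in place. The windows come from GRCm39, with the start of the canonical GENCODE M39 transcript, and the 4 genes were chosen after their motifs were known. Capitals mark matches on either strand to CAGCTG (an E-box form that MyoD family proteins bind), CATTCC (the M-CAT motif of TEAD proteins, GGAATG when on the other strand), the MEF2 motif and the CArG box of SRF. The windows were also searched for AGATAA on both strands and for TATAAA on the gene's own strand, which can overlap a MEF2 match, and these 4 windows held neither. Tnnt3 (chr7:142052220-142052419, plus strand) and Mylpf (chr7:126810580-126810779, plus strand) are fast skeletal genes, and Myh6 (chr14:55204226-55204425, minus strand) and Myl3 (chr9:110592509-110592708, plus strand) are cardiac ones.
Tnnt3: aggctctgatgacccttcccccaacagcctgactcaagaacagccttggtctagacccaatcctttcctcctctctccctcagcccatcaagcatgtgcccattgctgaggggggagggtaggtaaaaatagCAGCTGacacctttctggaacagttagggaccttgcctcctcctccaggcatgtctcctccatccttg
Mylpf: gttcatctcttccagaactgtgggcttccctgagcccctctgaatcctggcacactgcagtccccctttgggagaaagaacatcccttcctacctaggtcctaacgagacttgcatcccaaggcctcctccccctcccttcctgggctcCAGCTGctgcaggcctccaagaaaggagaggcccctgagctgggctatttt
Myh6: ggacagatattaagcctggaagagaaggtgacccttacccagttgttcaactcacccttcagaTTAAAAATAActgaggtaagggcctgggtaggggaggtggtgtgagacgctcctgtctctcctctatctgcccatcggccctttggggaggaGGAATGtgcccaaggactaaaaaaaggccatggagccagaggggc
Myl3: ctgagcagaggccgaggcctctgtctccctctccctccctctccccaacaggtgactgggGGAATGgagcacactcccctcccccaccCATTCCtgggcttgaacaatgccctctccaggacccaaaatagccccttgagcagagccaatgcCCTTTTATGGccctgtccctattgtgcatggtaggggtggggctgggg
CAGCTG was present in the windows of 9.26% of 13021 protein-coding genes tested. It was in 8 of 22 genes of the skeletal sarcomere list (36.4%) and in 2 of 17 of the cardiac list (11.8%). Of these protein-coding genes, 75 were called with a log2 fold change above 5 and 54 with one below -5. CAGCTG was in 21 of the 75 (28%) and in 5 of the 54 (9.26%). Over all called genes the share was 10.1% for those higher in TA and 10.7% for those higher in heart. In the skeletal and cardiac lists of calcium handling it was 12.5% and 13.3%. CATTCC was present in 8.95% of all windows, in 2 of the 22 skeletal and 5 of the 17 cardiac sarcomere genes. It was in 12% of the 75 and 16.7% of the 54, and in 2 of 16 skeletal and 1 of 15 cardiac calcium genes. The MEF2 motif was present in 1.59% of all windows, in 4 of the 22 skeletal and 3 of the 17 cardiac sarcomere genes. It was in 13.3% of the 75 and 3.7% of the 54, and in 2 of 16 skeletal and 0 of 15 cardiac calcium genes. These are descriptions of letters in short windows and say nothing about binding.

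Calcium handling was divided in the same way. All 16 genes tested from the skeletal list of excitation-contraction coupling were higher in TA, with a median log2 fold change of 5.98, and 11 of 15 genes of the cardiac list were higher in heart, with a median of -3.29. Ryr1, the skeletal calcium release channel, was at 386, 412, 355 and 372 TPM in TA and at 0.207, 0.633 and 0.0817 TPM in heart (log2 fold change 8.94, SE 0.21, adjusted p = 2.28e-08). Ryr2, its cardiac counterpart, was at 354, 345 and 281 TPM in heart and at 0.171, 0.257, 0.0231 and 0.179 TPM in TA (log2 fold change -8.97, SE 0.16, adjusted p = 8.47e-09). Each tissue thus held one of the 2 channels at 281 TPM or more and the other at under 1 TPM. Cacna1s and Cacna1c, the voltage sensors of skeletal muscle and heart, followed at 160 to 201 TPM in TA and 108 to 150 TPM in heart.

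The pumps were less alike in amount. Atp2a1 (SERCA1), the calcium pump of fast fibres, was at 10900, 12880, 11760 and 12790 TPM in TA and at 0.178, 31.5 and 0.434 TPM in heart. Its log2 fold change of 12.11 was the largest among genes higher in TA (SE 1.17, adjusted p = 7.65e-05), and without heart replicate 2, which held the 31.5 TPM, it was 13.89. Atp2a2 (SERCA2), the cardiac and slow-fibre pump, was at 2304 to 2499 TPM in heart and 24.9 to 49.2 TPM in TA. Pln, phospholamban, which slows that pump, was at 3632, 3691 and 3520 TPM in heart and at 1.56 to 4.08 TPM in TA. Strit1, a small membrane protein that opposes phospholamban, was at 213 to 272 TPM in heart and listed at 0 in the 4 TA mice. Pvalb, parvalbumin, a calcium buffer of fast fibres, was at 4180 to 5898 TPM in TA and at most 5.89 TPM in heart, with a log2 fold change of 11.94, or 13.09 without heart replicate 2.

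Parts of the calcium machinery were shared. Jph2 was at 112 to 140 TPM in TA and 108 to 113 TPM in heart (log2 fold change 0.24, adjusted p = 0.072), and Hrc, a calcium-binding protein of the reticulum, at 268 to 312 TPM and 251 to 269 TPM (0.20, adjusted p = 0.0665). Neither passed the test, and the ranges overlapped for both. Trdn, triadin, which anchors calsequestrin to the release channel, was from the cardiac list but higher in TA, at 687 to 846 TPM against 149 to 151 TPM.

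Ion channels and cell junctions showed heart genes that were close to absent in TA. Of 25 channel and gap junction genes of the heart tested, 17 were higher in heart and 2 in TA, and of 9 skeletal channel genes 7 were higher in TA. Kcnip2, a subunit of the transient outward potassium channel, was at 113, 104 and 104 TPM in heart and at most 0.0741 TPM in TA (log2 fold change -7.63, SE 0.12, adjusted p = 7.67e-09). Kcnk3, a background potassium channel, was at 82.7 to 91.2 TPM in heart and at most 0.423 TPM in TA. Scn4a, the sodium channel of skeletal fibres, was at 121 to 148 TPM in TA and still at 8.04 to 9.21 TPM in heart. The inward rectifier Kcnj2, used by both muscles, was at 15.3 to 23.8 and 14.5 to 16.7 TPM and was not called.

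The intercalated disc joins cardiomyocytes end to end. Of 16 of its genes, 10 were higher in heart, 2 were higher in TA and 4 were not called, with a median of -1.41. The desmosome genes had the widest gaps: Dsp, desmoplakin, was at 338, 301 and 289 TPM in heart and at most 0.0606 TPM in TA (log2 fold change -9.18, SE 0.11, adjusted p = 3.38e-09). Cdh2, N-cadherin, was at 136 to 157 TPM in heart and 1.69 to 3.00 TPM in TA. Xirp2 and Nrap, actin-binding proteins that skeletal fibres use at their ends, were the 2 that were higher in TA. Gja1, the main connexin of the ventricle, was at 257 to 273 TPM in heart and at 83.2, 17.6, 14.7 and 32.6 TPM in TA, which is a called difference (log2 fold change -3.16, SE 0.52, adjusted p = 0.00154) with a wide spread among the TA mice.

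At the neuromuscular junction, which heart does not have, 9 of 13 genes were higher in TA. Musk, the kinase that organises the junction, was at 25.1 to 29.8 TPM in TA and at most 0.11 TPM in heart (log2 fold change 5.65, SE 0.13, adjusted p = 2.33e-08). Chrne, the adult subunit of the acetylcholine receptor, was at 16.8 to 21.7 TPM in TA and listed at 0 in the 3 hearts, and Chrng, its fetal form, was at 0.798 to 3.11 TPM in TA. Agrn, the nerve and matrix signal agrin, was the 1 gene of the list that was higher in heart, at 7.81 to 10.6 TPM against 3.94 to 5.08 TPM.

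The dystrophin-associated complex, which loses its core protein in this strain, held 1 gene with a wide gap, Nos1, among mostly small differences. Of its 20 genes, 7 were higher in TA, 1 was higher in heart and 12 were not called (40% called, against 36.8% of all genes), with a median log2 fold change of 0.23. Dmd, the mutated gene itself, was at 45.0, 45.7, 51.2 and 44.6 TPM in TA and at 32.8 to 43.6 TPM in heart (log2 fold change 0.27, SE 0.11, adjusted p = 0.0896); TPM over the whole gene does not show whether a transcript codes for protein. Utrn, utrophin, its close relative, was at 22.4 to 27.8 TPM in TA and 29.0 to 33.2 TPM in heart, below the fold needed for a call. Nos1, the neuronal nitric oxide synthase that dystrophin holds at the membrane of fast fibres, was the exception, at 31.3, 47.2, 25.7 and 39.3 TPM in TA and at most 0.119 TPM in heart (log2 fold change 5.96, SE 0.21, adjusted p = 2.16e-07).

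Transcription factors mirrored the 2 lineages. Of 17 skeletal regulators tested, 16 were higher in TA and 1 was higher in heart, with a median of 3.54, and of 17 cardiac regulators tested, 16 were higher in heart and 1 was not called, with a median of -4.35. The skeletal list summed to 7.60 to 10.6 TPM in the hearts and the cardiac list to 17.3 to 22.5 TPM in TA. Many members thus passed the filter largely through 1 tissue, and their calls follow in part from having been tested. Myod1, which commits cells to muscle, was at 52.1, 39.6, 43.0 and 83.8 TPM in TA and at 0, 0.0297 and 0 TPM in heart (log2 fold change 6.69, SE 0.25, adjusted p = 2.74e-07). Myf6 (Mrf4), the member kept on in mature fibres, was at 217, 101, 78.5 and 162 TPM in TA and at most 0.0928 TPM in heart. Tbx15, which marks fast glycolytic fibres, was at 95.9 to 115 TPM in TA and at most 0.498 TPM in heart. In the other direction, Nkx2-5, the homeobox factor of the heart field, was at 27.7, 29.7 and 37.0 TPM in heart and listed at 0 in the 4 TA mice. Gata4 had a log2 fold change of -6.62 and was above 0 in only 1 TA mouse, at 0.148 TPM. Tbx20, Hand2 and Irx4 were at 41.1 to 54.2, 33.5 to 36.8 and 11.7 to 12.2 TPM in heart with at most 0.0727 TPM in TA. Msc (musculin), a repressor listed among the skeletal factors, was the one that went the other way, at 2.52 to 3.85 TPM in heart and 1.37 to 2.81 TPM in TA; its adjusted p-value of 0.0491 was at the threshold and its call was lost in 11 of 19 alternative settings.

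Genes of hindlimb position were higher in limb muscle. All 11 tested members of a list of Hox genes and limb factors of the hindlimb were higher in TA. The whole list summed to only 0.591 to 1.51 TPM in the hearts. Its members thus passed the filter largely through TA, and their calls follow in part from having been tested. Hoxc10, a Hox gene of the hindlimb level, was at 47.3, 59.1, 54.3 and 54.5 TPM in TA and at 0, 0.0577 and 0 TPM in heart (log2 fold change 6.71, SE 0.12, adjusted p = 1.06e-08). Hoxa13, Hoxa11, Hoxc8, Hoxc9 and Hoxc11 were listed at 0 in all 3 hearts and were at 0.393 to 6.01 TPM in TA. Tbx4, the T-box factor of the hindlimb, was at 0.92 to 1.80 TPM in TA and at most 0.0422 TPM in heart.

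**Figure D2:**
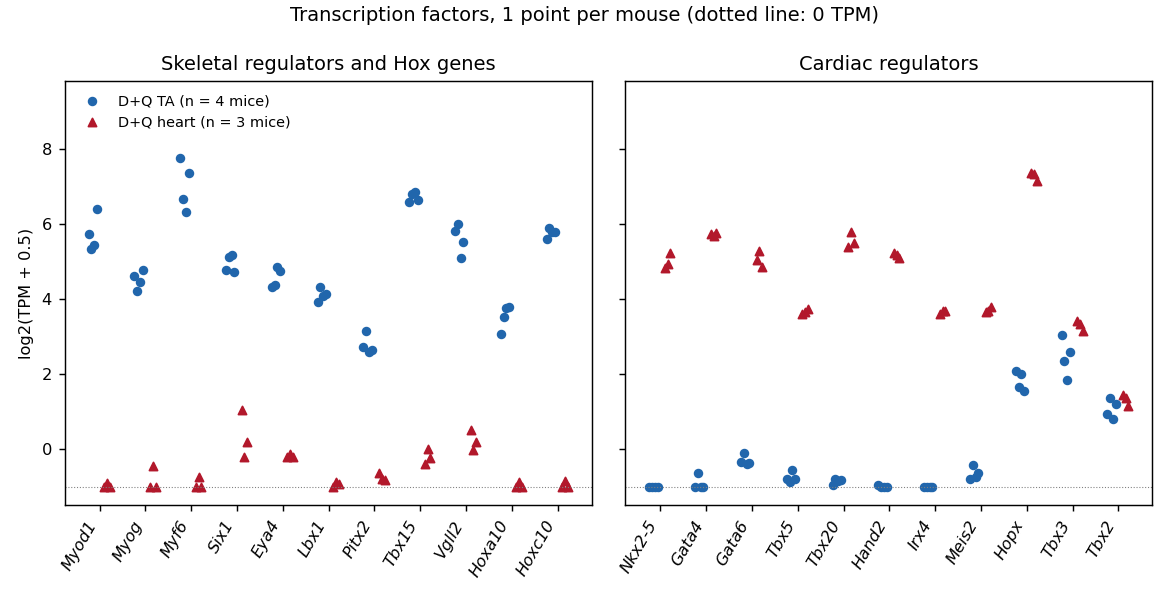
log2(TPM + 0.5) of 22 transcription factors, with 1 point per mouse, circles for the 4 D+Q TA libraries and triangles for the 3 D+Q hearts; the dotted line marks 0 TPM. In the left panel all TA points lie above all heart points, and in the right panel all heart points lie above all TA points except for Tbx2, whose groups overlap.

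Energy metabolism divided by pathway and, within pathways, by isoform. Of 35 genes of glycolysis and glycogen use, 24 were higher in TA and 7 higher in heart, with a median of 1.84. Of 30 genes of fatty acid use, 28 were higher in heart and 1 was higher in TA, with a median of -1.53. In TPM, the glycolysis list summed to 2.26 to 2.93% of the library in TA and 0.693 to 0.715% in heart, and the fatty acid list to 0.251 to 0.324% and 0.921 to 1.03%.

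Among the glycolytic enzymes, Aldoa, aldolase A, was at 8399, 10530, 10380 and 11390 TPM in TA and at 1549, 1628 and 1555 TPM in heart (log2 fold change 2.68, SE 0.11, adjusted p = 4.65e-07). Pfkm, Pygm, Ldha and Gapdh had log2 fold changes of 2.32, 2.13, 2.25 and 1.68. Slc16a3, the carrier that exports lactate, was at 116 to 167 TPM in TA and 0.733 to 1.48 TPM in heart, the highest log2 fold change of the list (6.48, SE 0.20, adjusted p = 1.01e-07). The 7 genes higher in heart were mainly forms of the same enzymes: Ldhb, the lactate dehydrogenase subunit of heart, was at 848, 826 and 854 TPM in heart and 43.7 to 84.2 TPM in TA, and Pygb, the brain form of glycogen phosphorylase, at 184 to 238 TPM in heart and 3.06 to 3.87 TPM in TA. Hk1 and Pfkl (log2 fold changes -2.86 and -3.09) and the lactate importer Slc16a1 (-1.28) were also higher in heart. Slc2a4 (GLUT4), the insulin-dependent glucose carrier, was at 217 to 279 TPM in TA and 165 to 186 TPM in heart, with a log2 fold change of 0.44 that lay under the minimum for a call.

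The fatty acid genes moved together over the whole route. Fabp3, which carries fatty acids in the cytosol, was at 2670, 2706 and 2536 TPM in heart and 279 to 360 TPM in TA (log2 fold change -3.02, SE 0.10, adjusted p = 1.16e-07), and Lpl, which frees them from lipoproteins, was at 1050 to 1079 TPM in heart and 99.7 to 151 TPM in TA. Uptake at the membrane (Cd36, -1.94), entry to mitochondria (Cpt2, -1.20) and the enzymes of beta-oxidation (Acadm, -1.69, and Hadhb, -2.12) were all called. Ucp3, a mitochondrial carrier, was the 1 gene higher in TA, at 40.3, 66.6, 111 and 93.1 TPM against 13.6 to 25.1 TPM. Pdk4, the kinase that shuts off pyruvate oxidation, was not called, with 393 to 694 TPM in TA and 192, 527 and 265 TPM in heart, overlapping ranges. Without heart replicate 2, the highest heart, it was called higher in TA (1.12, adjusted p = 0.0132). Bdh1 and Oxct1, which burn ketone bodies, had log2 fold changes of -3.02 and -2.13, and 8 of 10 genes of ketone and branched-chain amino acid use were higher in heart.

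The common end of these pathways differed less. Of 74 nuclear genes of the respiratory chain tested, 30 were called, all of them higher in heart (40.5% of the list, against 15.6% of all genes called in that direction), with a median of -0.44 and a range of -1.18 to 0.33. For 66 of the 74, all hearts lay above all TA mice, against 3312 of all 16381 genes tested, and the fold changes were small. Without the minimum fold, 59 passed in the heart direction and 1 in the TA direction, against 17.5% of all genes in the heart direction. The called number was 45 with median-of-ratios scaling and 42 with the mitochondrial genome left out. Under these 2 settings 3052 of 16379 and 3045 of 17313 genes tested were called higher in heart. Cox6a2 and Cox7a1, the muscle forms of cytochrome oxidase subunits, were at 1403 to 1437 and 1240 to 1257 TPM in heart and 683 to 814 and 545 to 712 TPM in TA. In the tricarboxylic acid cycle 6 of 22 genes were higher in heart (10 with median-of-ratios scaling) and 1 in TA, led by Idh2 at 570 to 592 TPM in heart and 23.8 to 48.5 TPM in TA (log2 fold change -4.04, SE 0.20, adjusted p = 1.59e-06). Citrate synthase (Cs), often used as a measure of mitochondrial mass, was at 218 to 283 TPM in TA and 297 to 313 TPM in heart and did not pass the test. The mitochondrial genome supplied 23.4 to 25.2% of all TPM in TA and 28.03 to 30.02% in heart. Of its 13 protein genes, 2 were called, mt-Co1 and mt-Atp6, both higher in heart. That is 15.4% of the list, near the 15.6% of all genes called in that direction. The list had a median of -0.15 and a range of -0.67 to 0.76. The call of mt-Atp6 (log2 fold change -0.51) rests on the fold minimum, since without TA replicate 1, 2 or 3 or heart replicate 2 it lay between -0.48 and -0.50. Reads of mitochondrial genes can also be assigned to nuclear copies. Gm28661, a pseudogene on chromosome 1, was listed at 35880 TPM in TA and 43910 TPM in heart on average (log2 fold change -0.29, not called), against 5152 and 7285 TPM for mt-Atp6, so values of single mitochondrial genes are uncertain.

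Among the enzymes that buffer ATP, Ckm, muscle creatine kinase, was at 8488, 10300, 9957 and 10590 TPM in TA and 1276, 1207 and 1265 TPM in heart (log2 fold change 2.97, SE 0.09, adjusted p = 1.06e-07). Ckmt2, the mitochondrial form, was at 552 to 839 TPM in TA and 704 to 745 TPM in heart and was not called. Ampd1, the AMP deaminase of fast fibres, was at 190 to 226 TPM in TA and at 0, 0.734 and 0 TPM in heart. Of 11 such phosphotransfer genes tested, 5 were higher in TA and 2 in heart. Mb, myoglobin, the oxygen store, was at 6309, 6312 and 6291 TPM in heart and 2669 to 3510 TPM in TA.

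**Figure D3:**
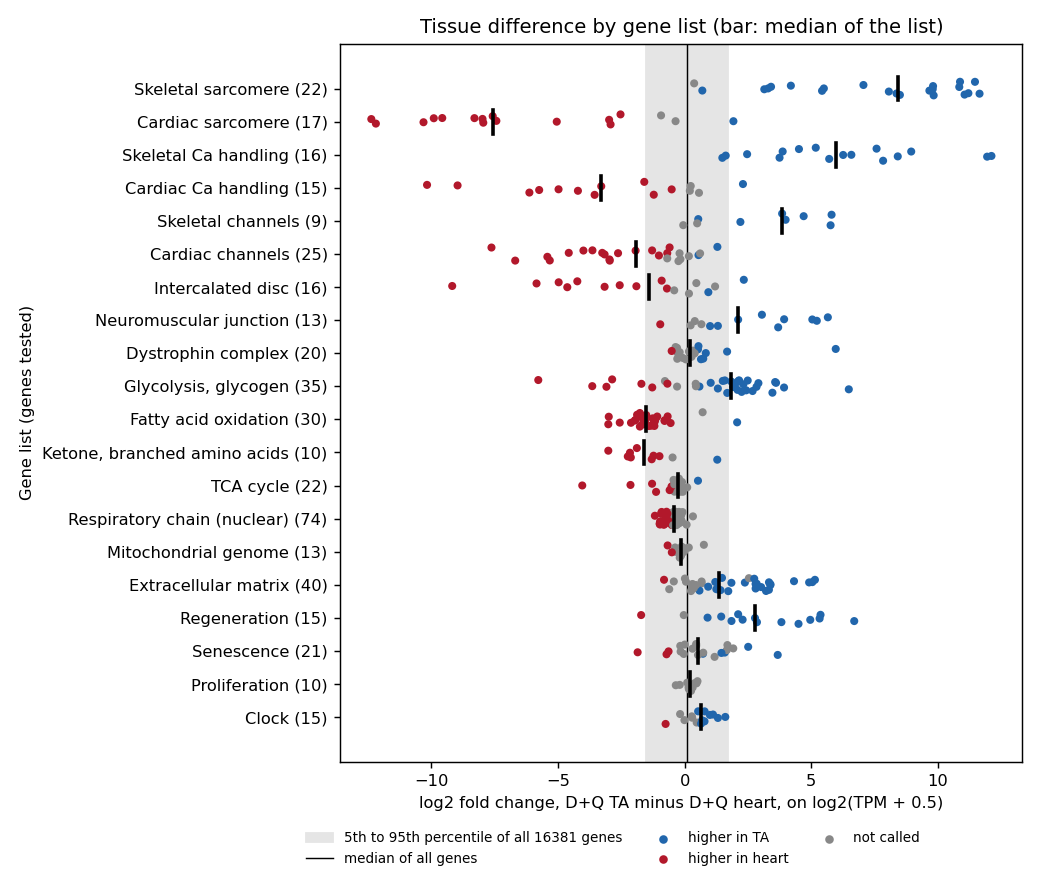
Log2 fold changes (TA minus heart, horizontal axis) of the genes tested in 20 lists, with 1 point per gene, coloured by the call; black bars are list medians, the grey band spans the 5th to 95th percentile of all 16381 genes tested, from -1.54 to 1.71, and the thin line is their median. The sarcomere and calcium lists reach far outside the band, while the respiratory chain, TCA cycle and dystrophin lists lie within it for most of their genes.

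The connective tissue of the muscles differed in the same mice. Of 40 matrix genes, 25 were higher in TA, 1 was higher in heart and 14 were not called, with a median of 1.36. Col1a1, the main chain of fibrillar collagen, was at 300, 191, 203 and 225 TPM in TA and at 21.2, 25.9 and 19.5 TPM in heart (log2 fold change 3.33, SE 0.17, adjusted p = 1.58e-06), and Col3a1 at 313 to 562 TPM and 54.7 to 67.6 TPM (2.84). Fn1, fibronectin, was at 242, 179, 101 and 190 TPM in TA and 17.1, 23.1 and 14.5 TPM in heart (3.21, SE 0.28, adjusted p = 4.40e-05). Thbs4 and Fmod, abundant in tendon, had log2 fold changes of 5.04 and 5.14. The basement membrane collagens Col4a1 and Col4a2 and the small proteoglycan Dcn were not called, although Col4a1 passed without TA replicate 3 (0.62, adjusted p = 0.0143) and Dcn without TA replicate 2 (0.52, adjusted p = 0.0102). Ltbp4, a protein that binds latent TGF-beta and a known modifier of dystrophy in mice, was the 1 gene higher in heart, at 62.9 to 72.5 TPM against 24.2 to 48.0 TPM (-0.82, SE 0.22, adjusted p = 0.0186), a call that was lost without heart replicate 1 (-0.83, adjusted p = 0.0535) or replicate 2 (-0.75, adjusted p = 0.0656). Tendon markers summed to 194 to 481 TPM in TA and 11.4 to 15.8 TPM in heart, with 5 of 6 called higher in TA. Fmod, Thbs4 and Comp belong to both the tendon and the matrix list, so the 2 lists are not separate. The part of tendon in the matrix difference was not tested. Of 11 fibroblast markers, 2 were higher in TA and 2 higher in heart, and their summed levels were 214 to 371 TPM in TA and 243 to 288 TPM in heart. In whole tissue, more cells of a type and more RNA per cell cannot be told apart.

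Genes of regeneration were mostly higher in TA. Of 15 tested, 13 were higher in TA and 1, the junction protein Jam2, was higher in heart. Myh3, embryonic myosin, which newly formed fibres make, was at 24.9, 8.06, 28.1 and 10.2 TPM in TA and at most 0.0511 TPM in heart (log2 fold change 4.96, SE 0.43, adjusted p = 3.72e-05), and Myh8, perinatal myosin, at 17.7 to 24.7 TPM and at most 0.0936 TPM. Mymk and Mymx, the membrane proteins that fuse myoblasts, were at 6.48 to 17.8 and 1.56 to 4.80 TPM in TA. Pax7, the satellite cell factor, was at 0.694 to 0.988 TPM in TA and at most 0.0081 TPM in heart. Adult Myh4 was at 4190 TPM or more in each of the same mice. For proliferation genes no difference was called: of 10 tested, including Mki67 (1.77 to 2.55 and 1.58 to 2.17 TPM), 0 were called by limma, none reached an unadjusted p-value of 0.05 (0 of 10), and the ranges of all 10 overlapped.

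D+Q is given to remove senescent cells, and genes used in work on such cells were called about as often as genes in general. Of 21 tested, 5 were higher in TA, 3 were higher in heart and 13 were not called (38.1% called, against 36.8% of all genes). Without TA replicate 3, 10 were higher in TA, as were 3877 of all 16161 genes tested in that setting. Cdkn2a, whose locus gives the cell cycle inhibitor p16 and, from another transcript, Arf, which a gene-level value does not separate, was at 5.26, 3.16, 3.72 and 6.06 TPM in TA and at 0.445, 0.378 and 0.278 TPM in heart (log2 fold change 2.51, SE 0.23, adjusted p = 5.63e-05). Cdkn1a, which codes for p21, was at 130, 57.2, 49.6 and 81.0 TPM in TA and 21.3 to 26.1 TPM in heart (1.58, SE 0.30, adjusted p = 0.0033). Both genes were higher in every TA mouse than in every heart. Gdf15, a stress hormone, Glb1, the lysosomal beta-galactosidase used as a senescence stain, and Bcl2, a survival protein, were higher in heart, with log2 fold changes of -1.86, -0.64 and -0.72. The call of Glb1 was lost without heart replicate 2 (-0.57, adjusted p = 0.0706) or replicate 3 (-0.60, adjusted p = 0.0615), and that of Bcl2 without heart replicate 1 (-0.67, adjusted p = 0.0546). The secreted factors Il6, Ccl2 and Cxcl1 were not called, and each of them spread widely among the TA mice.

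Immune cell markers were more abundant in TA. Of 23 leukocyte markers tested, 13 were higher in TA, 2 were higher in heart and 8 were not called, and their summed level was 739 to 1343 TPM in TA and 296 to 498 TPM in heart. Gpnmb and Itgax, which macrophages of damaged muscle carry, were at 162, 168, 84.7 and 155 TPM and at 7.63 to 23.1 TPM in TA, with at most 8.29 and 1.06 TPM in heart. Spp1, osteopontin, was at 69.9, 186, 23.4 and 76.0 TPM in TA and at most 6.56 TPM in heart. The complement genes C1qa, C1qb and C1qc, typical of resident macrophages, were not called. Timd4, a marker of resident heart macrophages, and the T cell gene Cd3e were higher in heart, at 1.03 to 1.44 and 0.745 to 1.96 TPM.

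Clock genes in the D+Q mice were mostly higher in TA: of 15 tested, 9 were higher in TA, 1 was higher in heart and 5 were not called (66.7% called, against 36.8% of all genes). In the vehicle mice 4 of the 15 were higher in TA and 5 were higher in heart, against 4056 and 2484 of all 16893 genes tested there. The hour of tissue collection is not given in the sources used here. The call of Dbp (log2 fold change 0.65, adjusted p = 0.0427) was lost in 13 of 19 alternative settings. Per1, which represses the clock, had the largest difference (log2 fold change 1.60), and Hlf, an output factor, was the 1 gene higher in heart (-0.75), which was lost without heart replicate 1 (-0.67, adjusted p = 0.0718) or replicate 3 (-0.74, adjusted p = 0.0591).

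Hormone and growth factor genes were divided between the tissues. Nppa and Nppb, natriuretic peptides, were at 373, 418 and 421 TPM and at 132, 122 and 209 TPM in heart and at most 1.03 and 1.70 TPM in TA. Mstn, myostatin, which limits muscle growth, was at 16.4, 15.7, 15.4 and 8.25 TPM in TA and at most 0.164 TPM in heart (log2 fold change 4.58, SE 0.26, adjusted p = 3.10e-06). Igf2 and Igf1 were higher in TA (2.29 and 1.25), and Fndc5, the precursor of irisin, was higher in heart, at 121 to 127 TPM against 27.6 to 39.9 TPM. Of 15 such genes tested, 6 were higher in each tissue and 3 were not called.

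The 4 TA mice differed more from one another than the 3 hearts did. The median SD of log2(TPM + 0.5) over the genes tested was 0.241 among TA mice and 0.155 among hearts, and it exceeded 1 for 454 genes in TA (2.77%) and 212 in heart. Among the 21 senescence genes it exceeded 1 for 6, and among the 17 cardiac sarcomere genes for 4. TA replicate 1 was high in chemokines and early injury genes: Cxcl1 was at 101, 2.25, 0.764 and 6.52 TPM in the 4 mice, Ccl2 at 143, 7.77, 1.88 and 53.7 TPM, and Il6 at 20.3, 0.729, 0 and 0.77 TPM. Thbs1, a matrix protein of early repair, was at 277, 23.9, 12.9 and 39.1 TPM, and Timp1, an inhibitor of matrix proteases, at 97.1, 10.99, 7.22 and 50.4 TPM. Ankrd1 and Xirp1, proteins of strained muscle, followed at 539, 44.1, 55.0 and 192 TPM and at 669, 201, 47.9 and 169 TPM. Replicate 1 was thus highest in each of these genes, and replicate 3 was lowest in all except Ankrd1. The order was another one for tendon genes: Fmod was at 86.3, 58.1, 205 and 47.6 TPM and Tnmd, tenomodulin, at 21.5, 8.22, 30.2 and 10.5 TPM, highest in replicate 3. Without TA replicate 1, the log2 fold change of Timp1 was 2.16 and that of Ankrd1 -3.62, against 2.80 and -2.92 with all mice. Their calls (adjusted p = 0.027 and 0.0166) were lost when other single libraries were left out: for Timp1 TA replicate 4 (2.47, adjusted p = 0.0679) and each heart (2.48 to 2.97, adjusted p = 0.0577 to 0.0948), and for Ankrd1 heart replicate 1 or 3 (-2.91 and -2.93, adjusted p = 0.0519 and 0.0517). Thbs1 was not called with all mice (2.54, adjusted p = 0.0521) and was called without TA replicate 1 (1.64, adjusted p = 0.0127) or replicate 3 (3.10, adjusted p = 0.019). Ccl2 and Xirp1, not called with all mice, were called without TA replicate 3 (2.71 and 1.84, adjusted p = 0.0444 and 0.0158).

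**Figure D4:**
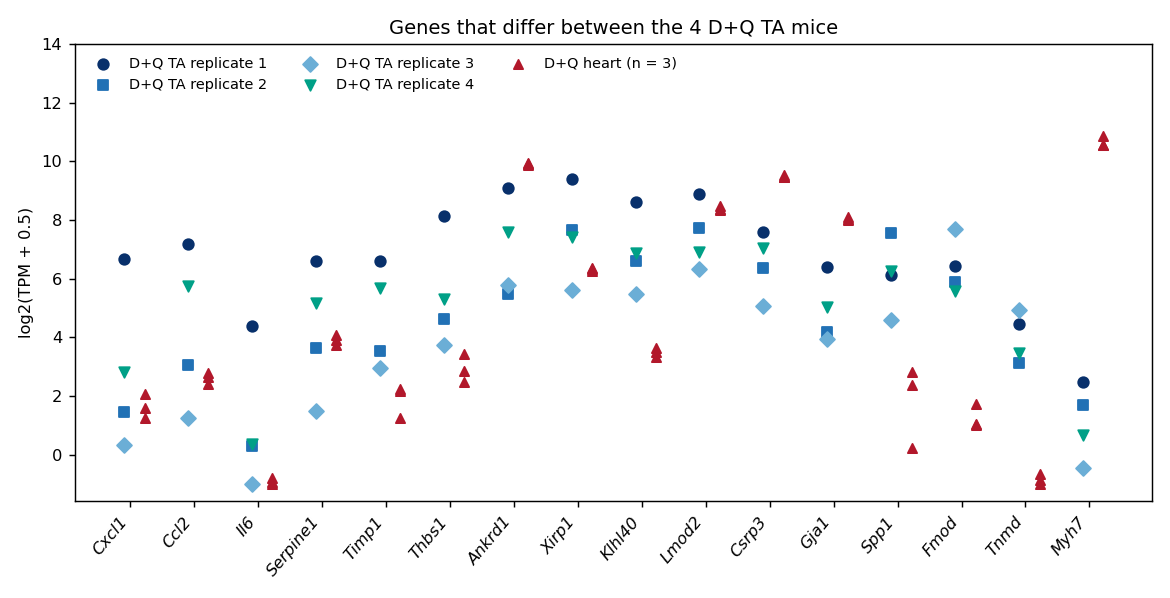
log2(TPM + 0.5) of 16 genes that varied among the 4 D+Q TA mice, 1 symbol per mouse, with the 3 D+Q hearts as triangles. TA replicate 1 (dark circles) is highest for the genes from Cxcl1 to Gja1, with Cxcl1 at 101 TPM against 0.764 to 6.52 TPM in the other mice, replicate 3 is highest for Fmod and Tnmd, and the hearts lie close together for most genes.

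Markers of other cell types were set beside these results to see what the tissues held. Ventricular markers summed to 11850 to 12500 TPM in the hearts, and atrial markers to 398 to 448 TPM, of which Nppa was 373 to 421 TPM. Myl7, the defining atrial light chain, was at 4.00, 4.54 and 3.46 TPM in the D+Q hearts. Myl4 and Sln, which atria share with skeletal muscle, were higher in TA, at 34.6 to 79.6 TPM against 2.05 to 4.62 TPM and at 2.40 to 4.65 TPM against 0.0408 to 0.416 TPM. In the 4 vehicle hearts the atrial markers summed to 888 to 4324 TPM and Myl7 was at 94.1 to 730 TPM, so the 2 groups of hearts did not overlap in these genes. Red cell markers summed to 27.0 to 122 TPM in the D+Q hearts, 347 to 1234 TPM in the vehicle hearts and 23.9 to 47.5 TPM in the D+Q TA. Schwann cell markers followed TA (48.7 to 106 TPM against 30.8 to 35.4 TPM). Mural cell markers, of smooth muscle and pericytes, summed to 334 to 454 TPM in TA and 601 to 640 TPM in heart, with 2 of 9 called higher in each tissue. Endothelial markers summed to 314 to 511 TPM in TA and 462 to 505 TPM in heart, with 8 of 17 called higher in heart and 1, the water channel Aqp1, in TA. Mesothelial markers, from the surface of the heart, summed to 1.48 to 6.22 TPM in TA and 13.2 to 16.4 TPM in heart. Fat cell markers summed to 2.84 to 6.78 TPM and 8.29 to 16.9 TPM. The part of these cells in the differences above was not tested.

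The TA minus heart contrast in vehicle-treated mice called 6540 of 16893 genes (38.7%), 4056 of them higher in TA and 2484 higher in heart. By Xist and Y-linked genes each vehicle group held both sexes, while D+Q TA was male and D+Q heart female. The part of sex, read in this way, in the comparison of the 2 contrasts was not tested. The question of whether the tissue difference itself was another one under D+Q was put to 17868 genes in a model of all 15 libraries. There, 11 genes were called (0.0616%), 8 with a TA minus heart difference that was more positive under D+Q and 3 with one that was more negative, and 994 had an unadjusted p-value under 0.05. For most genes the 2 tissue differences could not be told apart by this test, which does not show that they were equal: for the skeletal sarcomere list the median log2 fold change was 9.32 with vehicle and 8.43 with D+Q, and 0 of its 22 genes were called as different.

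Among the called genes, Myl7, Myl4, Sln and Mybphl are expressed in atria. For Myl4 the TA minus heart difference was 3.83 with D+Q and -2.31 with vehicle, a difference of 6.14 (SE 0.70, adjusted p = 0.00197), with mean levels of 57.5 and 47.8 TPM in D+Q and vehicle TA and 3.54 and 287 TPM in D+Q and vehicle heart. For Myl7, Sln and Mybphl the mean was 412, 32.6 and 27.8 TPM in vehicle heart and 4.00, 0.211 and 0.273 TPM in D+Q heart, while the TA means with D+Q and vehicle were 0 and 0, 3.43 and 5.52, and 0.0153 and 0.0839 TPM. These 4 genes thus differed mainly between the 2 groups of hearts, as the summed atrial markers did. Myl7, Myl4 and Sln are themselves in that sum, so for them it is not a separate observation. The part of atrial tissue in the dissected hearts was not tested. Bmal1, Ciart and Dbp belong to the circadian clock. Bmal1, its core activator, was at 9.96, 12.3, 11.8 and 12.1 TPM in D+Q TA, 9.47, 10.2 and 8.55 TPM in D+Q heart, 11.8 to 13.5 TPM in vehicle TA and 1.35 to 3.15 TPM in vehicle heart, a difference of -2.04 (SE 0.24, adjusted p = 0.00226). Dbp and Ciart, which the clock turns on at the opposite phase, were at 12.2 and 2.01 TPM in D+Q heart and 63.2 and 11.7 TPM in vehicle heart on average, with differences of 2.60 and 2.74 (adjusted p = 0.0498 and 0.032). The vehicle hearts thus stood apart from the other 3 groups in these 3 clock genes, with no overlap of the ranges. The remaining 4 were Fam124b and the interferon-induced Gbp10, with differences of -1.69 and -1.61, and the non-coding RNA genes Gm23734 and Gm56431, which were listed at 0 in all groups except the vehicle hearts. Both passed the filter through those 4 hearts alone, so their calls follow in part from having been tested. The calls of Myl7, Myl4 and Bmal1 held in every alternative setting that tested them. Those of Mybphl, Sln, Ciart, Dbp, Fam124b and Gbp10 were lost in 13 to 19 of 24 settings, each of them when D+Q TA replicate 2, 3 or 4 or D+Q heart replicate 1 or 3 was left out, among others, and none of the 6 changed direction.

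**Figure D5:**
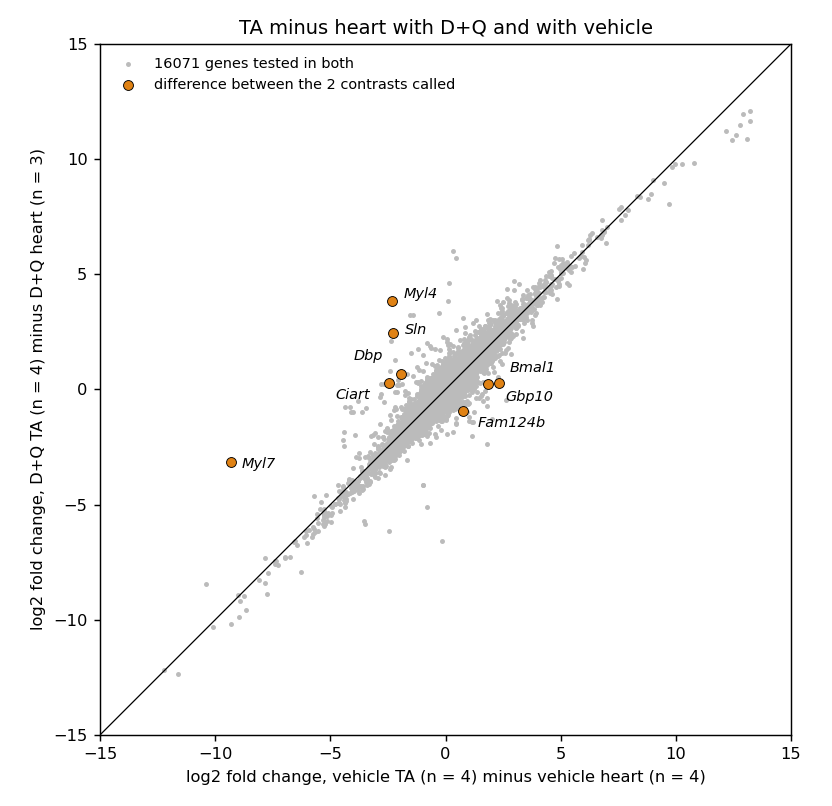
Log2 fold change TA minus heart with D+Q (vertical axis) against the same with vehicle (horizontal axis) for the 16071 genes tested in both, 1 grey point per gene, with the diagonal of equal values. Orange points are the 8 of the 11 called genes that were tested in both contrasts: Myl7, Myl4 and Sln lie far above the diagonal, Dbp and Ciart above it, and Bmal1, Gbp10 and Fam124b below it.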

How the data were processed

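Tibialis anterior and heart of DBA/2J-mdx mice were snap frozen, RNA was extracted from whole tissue, and mRNA libraries were sequenced, 1 per sample. Read trimming by the authors used Trim Galore 0.6.10, and quantification used Salmon 1.10.3 on GRCm39, with transcripts summed to genes in tximport; the annotation release is not given in the sources used here. The deposited values are TPM for 56980 Ensembl identifiers in 15 libraries, with no counts, so count models were not used. TA and heart samples were collected at different ages, so from different mice. Whether samples of a group shared animals, and whether any samples shared litters or sequencing runs, is not given in the sources used here. The p-values measure the spread between these samples.

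Gene symbols, positions and start sites came from GENCODE M39 (GRCm39), which matched 56236 identifiers. TPM was tested as log2(TPM + 0.5) for genes at 0.5 TPM or more in 3 or more libraries of a comparison, with limma 3.58.1 (lmFit and eBayes with trend, 2-sided) in R 4.3.3. Benjamini-Hochberg adjustment covered all genes tested in a comparison. Calls needed more than 0.5 of absolute log2 fold change, together with an adjusted p-value under 0.05. The TA minus heart difference was fitted on the 7 D+Q libraries and, separately, on the 8 vehicle libraries. The difference between both differences was an interaction contrast over all 15. The fits were tested on simulated data. The 2 fits of D+Q libraries share those libraries, so their results are not independent.

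Named genes were members of gene lists, markers or skeletal and cardiac pairs, genes called in the interaction, and, outside these, genes ranked by fold change, TPM difference or spread. Results for a few genes are not reported here. The members and lists were chosen with earlier results of these data known. Alternatives were pseudocounts of 0.1 and 1, a filter of 1 TPM and none, median-of-ratios scaling, leaving out the mitochondrial genome, no variance trend, other fold minimums, labelled sex, a replicate block and leaving out each library. Python 3.11.15 with matplotlib 3.10.9 drew the figures.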

Additional observations from a re-analysis of the deposited data

Results flagged for a closer look

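Of 163 named genes checked, 12 had 1 D+Q TA mouse whose gap to its nearest neighbour took up more of the range of the 4 mice than Dixon's 95% critical value allows. Chance alone marks about 1 in 20 groups, and whether 12 of 163 exceeds that was not tested. The rules for naming genes included spread among the TA mice, so flags can follow in part from that choice. TA replicate 1 stood high for Cxcl1 (101.2 TPM), Il6 (20.33 TPM) and Thbs1 (277.1 TPM), and for the near-absent heart factor Hand2 (0.01385 TPM, with 0 in the others). TA replicate 2 stood high for the receptor subunit Chrne (21.69 TPM), the survival gene Bcl2 (5.615 TPM) and the near-absent Gata4 (0.1478 TPM). TA replicate 3 stood high for Dmd (51.23 TPM) and low for the macrophage gene Gpnmb (84.73 TPM) and for Pgam1 (14.14 TPM). TA replicate 4 stood low for Mstn (8.247 TPM) and high for mt-Atp6 (6111 TPM).

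For 11 genes the TA minus heart difference itself differed between D+Q and vehicle by the interaction term of limma. On the log2 scale the difference under D+Q minus that under vehicle was 6.164 for Myl7, 6.137 for Myl4, 4.768 for Sln, 4.584 for Mybphl, 3.661 for Gm23734, 2.738 for Ciart, 2.603 for Dbp, 1.664 for Gm56431, -1.614 for Gbp10, -1.689 for Fam124b and -2.035 for Bmal1. The gap between D+Q and vehicle hearts in Myl7, Myl4, Sln and Mybphl went with the summed atrial markers of the hearts. That sum includes Myl7, Myl4 and Sln themselves. The part of atrial tissue in the gap was not tested.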

How the results depend on the processing

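Depth is not known from TPM, so no limit of detection can be set for genes listed at 0. Age, length of treatment and sex as read from Xist and Y-linked genes go with tissue in the 7 libraries. With labelled sex in the fit, the tissue contrast rests on heart replicate 3 alone, whose label goes against its own transcripts. The counts of 6028 called genes (3472 higher in TA, 2556 higher in heart) stayed within 1.5 times under the other settings except these. A minimum log2 fold change of 1 gave 3237 (1807 and 1430), and labelled sex gave 1514 higher in heart. Leaving out 1 library gave 1617 to 2591 higher in heart, with 1617 without heart replicate 1 and 1630 without heart replicate 2, because the filter of 3 libraries then removes genes listed in hearts only; on the same genes, an alternative chosen after seeing the data, these were 2137 and 2161. Median-of-ratios scaling moved the median over all genes from 0.10 to 0.0078 and gave 2949 higher in TA and 3052 higher in heart.

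The 11 interaction calls (8 more towards TA, 3 more towards heart) became 7 (5 and 2) with a pseudocount of 1, 5 (4 and 1) with no filter, and 11 (10 and 1) with labelled sex. Leaving out 1 library gave 5 to 14 calls, 4 to 9 towards TA and 1 to 7 towards heart, with 5 without D+Q TA replicate 2 and 14 without vehicle heart replicate 3.

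Replicate numbers are shared by the groups, but TA samples were collected at 5 months of age and heart samples at 16 months. Same-numbered TA and heart samples thus came from different mice. Their deviations correlated at -0.0172, -0.0507 and 0.0336. A replicate block gave 2971 tissue calls higher in TA and 2377 higher in heart and 5 interaction calls (4 and 1). In the block fit TA replicate 4 has no partner.

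Of 160 named genes, each tested under 15 to 19 alternatives, 136 kept direction and call in all that tested them, 14 lost their call in at least 1, 8 gained one, and 2 uncalled genes changed sign: Ckmt2 (-0.14 to 0.060 over left-out libraries, above 0 only without TA replicate 3) and Cxcl1 (-0.10 to 2.01, below 0 only without TA replicate 1). The cause was not tested.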
